A study of Gallus gallus with 18 samples.

Results

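CYP1A1 and CYP1A2 are cytochrome P450 enzymes that oxidise flat aromatic compounds such as polycyclic hydrocarbons, many plant compounds and some steroids. They were picked because their transcripts were much lower in the liver of heated chickens. All probe sets that the array's annotation assigns to CYP1A1 or CYP1A2 alone were taken, which gave 4 probe sets for 2 of the 13009 genes named on the array. CYP1A1 has 1 probe set, Gga.618.1.S1_at. CYP1A2 has 3, called probe set a (Gga.617.1.S1_at), probe set b (Gga.61.1.A1_at) and probe set c (Gga.61.1.S1_at) here. Probe set a carries the gene ID of the current CYP1A2. The gene ID given for b and c is not in the RefSeq table used here, so whether they measure the same CYP1A2 gene is not settled. The names of b and c share the number 61.1 and differ only in the suffix, A1 or S1. Which strand each reads, and whether both read the same transcript, was not tested. RefSeq (assembly GRCg7b) also lists the chicken genes under the names CYP1A4 and CYP1A5, and places both on chromosome 10. How far a probe set for one of these related genes also binds the transcript of the other was not tested.

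RNA of brain (cerebral cortex by its tissue label), liver and leg muscle was hybridised to 18 Affymetrix chicken arrays, 3 in each of 6 groups. Chickens whose breed or line is not given in the labels were kept at 28 ± 1 °C for 8 days; the labels also use the 8 days of the birds themselves, so whether this is their age is not settled. Controls were sampled from that temperature and carry the time label T0. Heated birds were held at 40 ± 1 °C for 3 h and carry the label T3, so heat and time of sampling cannot be told apart. The study used 24 birds, 12 male and 12 female. The labels call the arrays biological replicates without saying which birds, which sexes or what pools went on each.

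Transcription of CYP1A genes is driven mainly by the aryl hydrocarbon receptor (AHR). This receptor waits in the cytoplasm in a complex with the chaperone HSP90, moves to the nucleus when a ligand binds, and pairs there with ARNT on xenobiotic response elements. The enzymes need heme and take electrons from the reductase POR, and the liver is their main site in vertebrates.

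In each tissue, 19220 probe sets whose mean intensity was at or above that of the tissue's median probe set were tested by limma with Benjamini-Hochberg adjustment. The limit came to intensities of 97.2 for brain, 83.2 for liver and 87.0 for muscle. Bacterial trp probe sets, a gauge of background, read 6.06 to 97.6, so values near the limit are near background. Precision is limited by having 3 arrays a group. The heat contrast in liver chose the 2 genes and is therefore given without a test. All changes are differences in log2(intensity + 16), which understate the change of a low value.

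In control liver, CYP1A1 read 3003, 2738 and 2640. In heated liver it read 443, 483 and 179. The groups are far apart: the highest heated value was 18.3% of the lowest control value, and heat 3 was the lowest of the 6 arrays. The means were 2794 ± 188 (SD, n = 3) and 368 ± 165 (SD, n = 3). The spread relative to the mean was wider under heat, with coefficients of variation of 6.72% in control and 44.8% in heat. On quantile-normalized values the difference was -3.11 on the log2 scale, 8.63-fold lower, and it was the largest fall of the 19220 probe sets tested. Without heat 3 the fall was 6.40-fold and the probe set ranked 6 among the falls, and without heat 2 it was 10.3-fold. Without control 1 it ranked 3.

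The 3 probe sets next in order that carry a symbol were those of SQLE (log2 -2.82) and HSD17B7 (log2 -2.76), enzymes of cholesterol synthesis, and THRSP (log2 -2.53), a regulator of lipid synthesis. Of the probe sets tested in liver, 7.01% were called higher and 6.11% lower at an adjusted p under 0.05. With the deposited scaling the calls were 1906 higher and 829 lower, against 1348 and 1175 after quantile normalization.

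**Figure D1:**
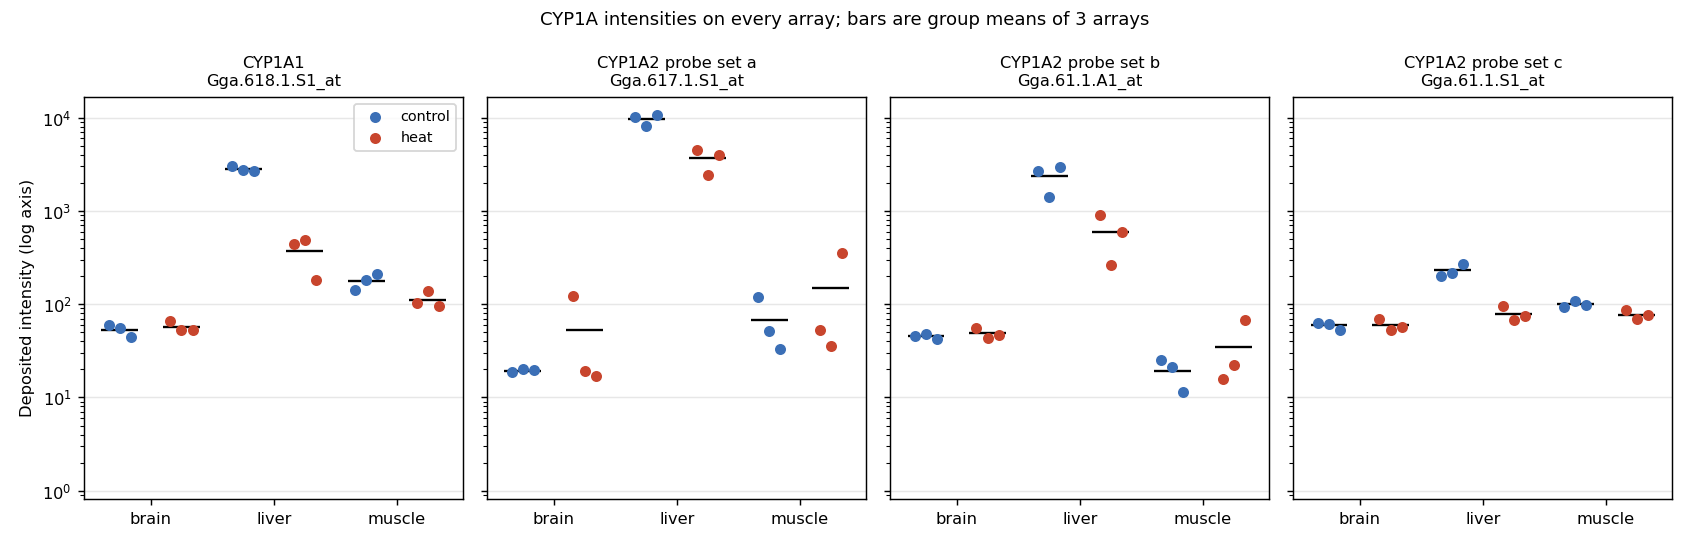
Deposited intensity (log axis) of the 4 CYP1A probe sets on each of the 18 arrays, by tissue, with controls in blue, heat in red and a bar at the mean of 3 arrays. In liver, every probe set reads lower on all 3 heat arrays than on any control, while in brain and muscle single arrays (brain heat 1, muscle heat 3) stand out for probe set a.

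CYP1A2 was also lower in heated liver, but by less. Probe set a read 10051, 8127 and 10663 in control and 4536, 2431 and 4004 in heat. Its highest heated value was 55.8% of its lowest control value, and the log2 difference was -1.51, 2.85-fold lower, which ranked 41 among the falls. Probe set b read 2673, 1423 and 2968 in control and 912, 265 and 593 in heat. For probe set b the groups also lay apart, with a log2 difference of -2.19 (4.55-fold lower) and rank 7. Probe set c read 202, 216 and 272 in control and 94.6, 66.9 and 75.4 in heat, a log2 difference of -1.41 (2.65-fold lower) with rank 57. No heated array reached a control array on any of the 4 probe sets, where 19.4% of all probe sets tested in liver were lower in heat with no overlap. Since the genes were chosen on this contrast, nothing is read from that count.

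Leaving out 1 array at a time moved the log2 difference between -1.71 and -1.29 for probe set a, between -2.53 and -1.74 for probe set b and between -1.52 and -1.29 for probe set c. Beside probe set a in the order of falls stood SCD (log2 -1.52), a fatty acid desaturase, SMYD1 (-1.50) and SEBOX (-1.50). Beside probe set b stood PPP1R3C (-2.11), a glycogen-targeting subunit of protein phosphatase 1, with FDPS (-2.10) and NSDHL (-2.09), both of cholesterol synthesis. Beside probe set c stood GRHPR (-1.39), 1 probe set of the glucuronyl transferase UGT1A1 (-1.39) and PDIA5 (-1.39).

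The arrays did not keep the same order for both genes. Probe set a and probe set b were both highest on control 3 and lowest on control 2 among controls, and both lowest on heat 2. CYP1A1 was lowest on heat 3, where it stood at 6.41% of the control mean, while probe set a stood at 41.6% there. On heat 2 the corresponding shares were 17.3% and 25.3%, and on heat 1 they were 15.8% and 47.2%. The ratio of the probe set a intensity to the CYP1A1 intensity was 3.35, 2.97 and 4.04 on the control arrays and 10.2, 5.03 and 22.3 on the heat arrays. All 3 heated ratios lie above the control ratios. This describes the contrast on which the genes were chosen and was not tested, and a ratio of different probe sets does not give the relative amounts of the transcripts.

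Hepatocytes are the main cells of the liver that carry CYP1A. Of 14 fixed hepatocyte markers (albumin, fibrinogen chains and other plasma proteins and enzymes), 13 were matched on the array, and all 13 read at least 200 in liver. Their median level was 88.8% to 106% of the control mean on control arrays and 97.6% to 114% on heat arrays, and their summed intensity ran from 153080 to 181960 and from 164877 to 199935. Of the 13, 1 was called higher in heated liver and 0 lower, with a median log2 difference of 0.072 against -0.029 for all probe sets tested. In bulk tissue, fewer cells of a type and less RNA per cell cannot be told apart. Markers of other liver cells were at 147% to 187% on heat arrays against 84.7% to 113% on controls for endothelium (1 of 4 called higher), and at 142% to 156% against 86.8% to 116% for stellate cells and fibroblasts (3 of 6 called higher). The median of the 2 bile duct markers was at 115% to 120% against 94.9% to 108% (1 of 2 called higher), but the 2 disagreed. On heat arrays the lower of them stood at 66.7% to 83.5% and the higher at 156% to 164%. Hence no direction is read for bile duct. Macrophage markers were at 88.9% to 106% against 92.2% to 105% (0 of 7 called). Erythroid markers were at 69.6% to 77.2% against 59.1% to 132% (0 of 2 called). Over all probe sets tested in liver, 13.1% were called. The part of these cells in the CYP1A values was not tested.

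**Figure D2:**
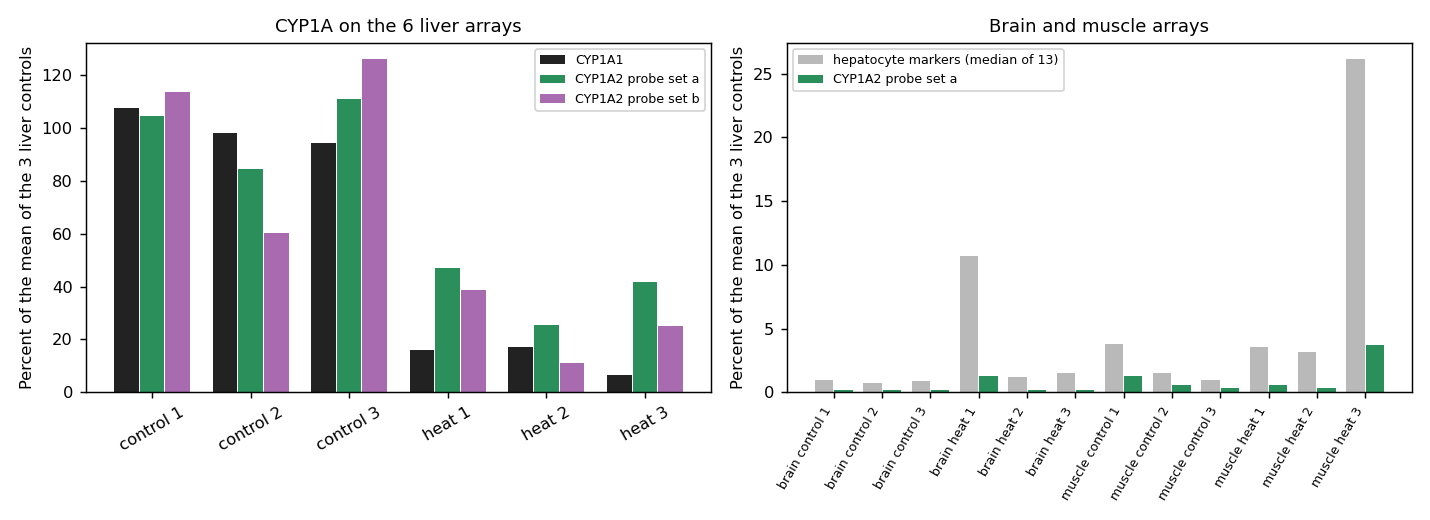
Left, the intensity of CYP1A1 and of CYP1A2 probe sets a and b on each liver array, in percent of the mean of the 3 liver controls. Right, on the brain and muscle arrays, the median of 13 hepatocyte markers (grey) and probe set a (green) in percent of the same mean, with both highest on muscle heat 3 (26.1% and 3.71%).

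Outside the liver the levels were low. In brain, CYP1A1 read 59.6, 55.0 and 44.5 in control and 65.3, 53.2 and 52.5 in heat. The groups overlap, and the log2 difference was 0.083. All 4 CYP1A probe sets lay below the limit for testing in brain, so none has a test there. Had no limit been set, limma's adjusted p would have been 0.72 for CYP1A1, 0.44 for probe set a, 0.70 for probe set b and 0.96 for probe set c. Probe set b read 41.9 to 47.9 in control and 43.6 to 55.1 in heat, and probe set c read 52.4 to 63.2 and 53.0 to 69.7.

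Probe set a read 18.6, 20.0 and 19.6 in control brain and 123, 19.3 and 16.9 in heated brain. A single array, heat 1, was high, and the other 2 heated values lay at the control level. The log2 difference of 0.62 was -0.054 without heat 1. The hepatocyte markers stood at 10.7% of their liver control level on brain heat 1, at 1.24% and 1.50% on heat 2 and 3, and at 0.73% to 0.95% on the controls. Their summed intensity was 39792 on brain heat 1 and 3443 to 5231 on the other 5 brain arrays. On brain heat 1, probe set a stood at 1.28% of its liver control level and at 3.36% of its heated liver level.

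Leg muscle gave the highest CYP1A1 values outside the liver. CYP1A1 read 142, 181 and 209 in control muscle and 102, 137 and 96.1 in heated muscle. The groups do not overlap, as for 11.7% of all probe sets tested in muscle in that direction. The log2 difference was -0.60 (1.51-fold lower, SE 0.18, 95% interval -1.03 to -0.17), with an adjusted p of 0.20 by limma. CYP1A1 was thus not called in muscle, where 0.0104% of the probe sets, 2 of 19220, were called and 3081 had an unadjusted p under 0.05. Leaving out 1 array at a time gave -0.74 to -0.48. Over 14 alternatives the adjusted p ran from 0.093 to 0.42.

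Probe set c showed a smaller difference in the same direction in muscle. It read 94.2, 109 and 97.6 in control and 86.7, 68.5 and 76.6 in heat, again with no overlap. The log2 difference was -0.32 (SE 0.13, 95% interval -0.62 to -0.023) with an adjusted p of 0.28 by limma. The heated mean of 77.3 lay below the limit of 87.0, and without control 2 the probe set was not tested (mean 84.7). Its values are thus close to the limit, and the test does not settle whether it differed.

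Probe set a read 119, 51.6 and 33.3 in control muscle and 52.5, 35.6 and 356 in heated muscle. Heat 3 was the highest of the 6 and the groups overlap. The log2 difference was 0.52 (SE 0.73, 95% interval -1.19 to 2.22) with an adjusted p of 0.78 by limma, and without heat 3 it was -0.37, with the probe set then below the limit for testing. Probe set b read 25.2, 21.1 and 11.3 in control and 15.7, 22.2 and 67.3 in heat. It lay below the limit, and its log2 difference of 0.42 was 0.0037 without heat 3.

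The array that was high for both of these CYP1A2 probe sets was also high for hepatocyte markers. They stood at 26.1% of their liver control level on muscle heat 3 and at 0.97% to 3.78% on the other 5 muscle arrays, with a summed intensity of 58874 against 2388 to 13566. Probe set a stood at 3.71% of its liver control level on muscle heat 3, at 1.24% on muscle control 1, which had the highest marker level of the controls, and at 0.35% to 0.55% on the other 4. Against heated liver, muscle heat 3 stood at 9.74% for probe set a and 11.4% for probe set b. Single hepatocyte markers ranged there from 12.1% to 71.8% of their liver control level. CYP1A1, in contrast, had its lowest muscle value on heat 3. The part of liver transcripts in the brain and muscle values was not tested.

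Controls of muscle and brain were compared in a fit over all 18 arrays after quantile normalization. All 4 CYP1A probe sets lay below the limit for testing in brain, so those tested here entered through their muscle level. This favours a higher value in muscle, and their control brain values lay below the highest background reading there (65.0). The sizes and p-values are therefore given without a conclusion. On deposited values, CYP1A1 read 142 to 209 in control muscle and 44.5 to 59.6 in control brain. CYP1A1 was higher in muscle by 1.67 on the log2 scale (3.18-fold, SE 0.24, 95% interval 1.15 to 2.18, limma's adjusted p = 1.07e-05). Probe set c was higher by 0.79 (1.73-fold, SE 0.14, 95% interval 0.50 to 1.08, limma's adjusted p = 7.14e-05). In this comparison 73.8% of 22856 probe sets were called and 39.8% were higher in muscle, so a call is common. Probe set a differed by 1.24 (SE 0.61, 95% interval -0.050 to 2.54), which did not pass (adjusted p = 0.076 by limma). Probe set b was not tested, and its difference was -0.70.

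The difference between muscle and brain in the heat effect was tested as an interaction, in which 0.433% of the probe sets were called. CYP1A1 gave -0.74 (SE 0.35, 95% interval -1.47 to -0.0037) with an adjusted p of 0.41 by limma. Probe set a gave -0.082 (95% interval -1.91 to 1.75, adjusted p = 0.98) and probe set c -0.36 (95% interval -0.77 to 0.055, adjusted p = 0.50), all by limma. None of the 3 passed, and the wide interval for probe set a leaves sizes in both directions possible. All 3 lay below the limit for testing in brain and entered through their muscle level.

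Ordered by group mean, CYP1A1 ran from control liver (2794) through heated liver (368), control muscle (177), heated muscle (112) and heated brain (57.0) to control brain (53.0). Heated liver and control muscle overlap in their ranges, as do both brain groups, and the other neighbours do not. Probe set a ran from control liver (9614) through heated liver (3657), heated muscle (148), control muscle (68.1) and heated brain (53.0) to control brain (19.4). In that order the ranges part below control liver and below heated liver, and the brain and muscle neighbours overlap. Probe set b had the same break below heated liver (590), with brain and muscle means from 19.2 to 48.5. For probe set c only control liver (230) stood apart from its neighbour in the order, and heated liver (79.0) lay between control muscle (100.3) and heated muscle (77.3).

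The receptor that drives CYP1A transcription did not pass the test in any tissue. AHR, matched under its RefSeq symbol AHR1A, read 2844, 2449 and 2651 in control liver and 2911, 2236 and 3338 in heat. The values overlap, with a log2 difference of -0.078 (adjusted p = 0.74 by limma) after quantile normalization and 0.078 with the deposited scaling, so its direction is not settled; a further AHR probe set gave 0.13 (adjusted p = 0.70). Its partner ARNT gave -0.20 (adjusted p = 0.37), and a dimmer ARNT probe set -0.30 (adjusted p = 0.23). TIPARP, an AHR target that represses the receptor, gave 0.049 (adjusted p = 0.84). In brain the log2 differences were 0.13 for AHR, -0.023 for ARNT and 0.069 for TIPARP, and in muscle -0.10, -0.57 and -0.23, with adjusted p-values by limma from 0.34 to 0.92. The dimmer ARNT probe set read 156, 161 and 156 in control brain and 143, 119 and 113 in heat (log2 -0.31, adjusted p = 0.096 by limma). The further AHR probe set lay below the limit for testing in brain. It read 59.7, 67.0 and 62.3 in control brain and 84.95, 100.3 and 92.05 in heat (log2 0.46). Its control values lay near the highest background reading in brain (65.0). The sign of AHR in muscle, of TIPARP in brain and liver and of the brighter ARNT probe set in brain changed when single arrays were left out. Probe sets named AHR2 are also on the array. A single one was tested, in liver, with means near the limit (87.9 in control and 89.2 in heat, log2 0.012, adjusted p = 0.95 by limma). In brain and muscle every AHR2 probe set lay below the limit for testing. No probe set named AHRR, the receptor's repressor, was matched here.

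Of 11 AHR partners and regulators tested in liver, 1 was lower and 0 were higher, a share of 9.09% beside the 13.1% over all probe sets. The median log2 difference was -0.17 against -0.029 over all probe sets. The gene called was HSP90AB1, a constitutive HSP90 chaperone, at 250, 263 and 299 in control and 193, 145 and 170 in heat (log2 -0.68, SE 0.14, adjusted p = 0.022 by limma). Its adjusted p rose to between 0.059 and 0.084 without control 2, control 3 or heat 3. In brain 1 of 10 was higher and 2 were lower, where 11.9% of all probe sets tested were called. Those named by rule are HSP90AA1, the inducible HSP90 chaperone (log2 0.61, adjusted p = 0.013), and the coactivator NCOA1 (log2 -0.50, adjusted p = 0.036). A dimmer HSP90AA1 probe set gave 1.17 (adjusted p = 0.012 by limma). A dimmer NCOA1 probe set lay below the limit for testing and gave 0.0086. The transcription factor SP1 (log2 -0.76, adjusted p = 0.0495) is named only after its value was seen, and kept its call only without heat 1 among the fits that left out 1 array (otherwise 0.11 to 0.17). The brighter HSP90AA1 probe set lost its call without brain control 1, control 3 or heat 2 (adjusted p 0.080 to 0.086). The brighter NCOA1 probe set lost its call without any of the controls or heat 2 (0.081 to 0.14). In muscle 0 of 10 were called, where 0.0104% of all probe sets were.

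Of 9 other genes known as AHR targets and tested in liver, 1 was lower and 0 were higher, 11.1% against 13.1% over all probe sets, with a median log2 difference of 0.047 against -0.029. NQO1, a quinone reductase, read 4884, 3513 and 4285 in control and 2479, 2837 and 3063 in heat, and the groups do not overlap (log2 -0.71, SE 0.14, adjusted p = 0.020 by limma). A further probe set of NQO1 gave -0.50 with an adjusted p of 0.053, and the call was lost without control 3 (0.074) or heat 1 (0.063). The probe sets of UGT1A1 disagree: the brightest read 7265 ± 1039 and 6841 ± 972 (SD, n = 3; log2 -0.14, adjusted p = 0.43), another gave -0.38 (adjusted p = 0.19) and a dim one -1.39 (191 to 65.4, adjusted p = 0.016). The closest relatives of the CYP1A genes lay below the limit for testing in liver. CYP1B1 read 34.1 ± 4.66 in control and 42.4 ± 8.83 in heat, and CYP1C1 74.7 ± 10.9 and 53.6 ± 3.26 (SD, n = 3). Both also lay below the limit in brain and muscle, where CYP1B1 averaged 77.8 and 45.4 in control and 101 and 57.9 in heat. In brain 0 of 8 and in muscle 0 of 9 target genes were called, where 11.9% and 0.0104% of all probe sets were.

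Of 12 genes for heme synthesis and breakdown and for electron supply, 2 were lower in heated liver and 0 were higher, 16.7% against 13.1% over all probe sets, with a median log2 difference of -0.069 against -0.029. POR, which passes electrons to all microsomal P450 enzymes, read 671, 664 and 704 in control and 402, 471 and 403 in heat. Every heated value lies below every control value (log2 -0.77, SE 0.13, adjusted p = 0.013 by limma), and without control 3 the adjusted p was 0.058. UROD, an enzyme of heme synthesis, read 564, 563 and 582 in control and 300, 282 and 324 in heat (log2 -0.97, SE 0.13, adjusted p = 0.0064), and its call held without any single array. ALAS1, the rate-limiting enzyme of heme synthesis in liver, gave -0.16 (adjusted p = 0.43). In brain 3 of 12 were lower, 25% against 11.9% of all probe sets called, with a median log2 difference of -0.23 against -0.00062. Among them were ALAD (log2 -0.55, adjusted p = 0.024) and ALAS1 (log2 -0.53, adjusted p = 0.025). The third, UROD (log2 -0.41, adjusted p = 0.043), is named only after its value was seen and kept its call only without heat 1 among the fits that left out 1 array (otherwise 0.073 to 0.17). POR gave -0.33 (adjusted p = 0.065). ALAD and ALAS1 lost their call without brain control 1, control 3 or heat 2, ALAD also without control 2, with adjusted p-values from 0.052 to 0.11. Erythroid markers stood at 61.6%, 57.1% and 85.4% of the liver control level in control brain and at 82.8%, 39.8% and 24.4% in heat (0 of 2 called, groups overlapping). Skeletal muscle markers stood at 0.39% to 0.45% of the muscle control level in control brain and at 1.03% to 1.72% in heat. Of 7 tested, 6 were called higher, where 11.9% of all probe sets tested in brain were called in either direction. The limit for testing used the mean over control and heat arrays together. Summed over the 9 markers used, the intensity was 761 to 826 in control brain and 2063 to 5145 in heat. A marker could thus enter the test through its heated level, and nothing is read from that count. The EEF1A 3'/5' ratio, a gauge of RNA quality, was 1.47 to 1.56 in control brain and 1.32 to 1.396 in heat. The part of these in the brain calls of the listed genes was not tested. In muscle 0 of 12 were called, where 0.0104% of all probe sets were, with a median log2 difference of -0.36 against 0.014. POR gave -0.41 (adjusted p = 0.23) and ALAS1 -0.16 (adjusted p = 0.57). The fit over 18 arrays called 2054 probe sets in muscle. Among them were POR, ALAD and UROD, all lower (adjusted p = 0.014, 0.0040 and 0.0050 by limma). A fall of these genes in muscle is thus not excluded.

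Of 13 xenobiotic receptors and liver transcription factors tested in liver, 1 was lower and 0 were higher, 7.69% against 13.1% over all probe sets, with a median log2 difference of -0.068 against -0.029. It was HNF4A, a nuclear receptor of hepatocytes, at 1302, 1214 and 1259 in control and 872, 694 and 751 in heat (log2 -0.84, SE 0.13, adjusted p = 0.010 by limma). The groups do not overlap and the call held without any single array, but a further HNF4A probe set gave -0.32 with an adjusted p of 0.14. In brain 0 of 7 and in muscle 0 of 9 were called, where 11.9% and 0.0104% of all probe sets were.

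**Figure D3:**
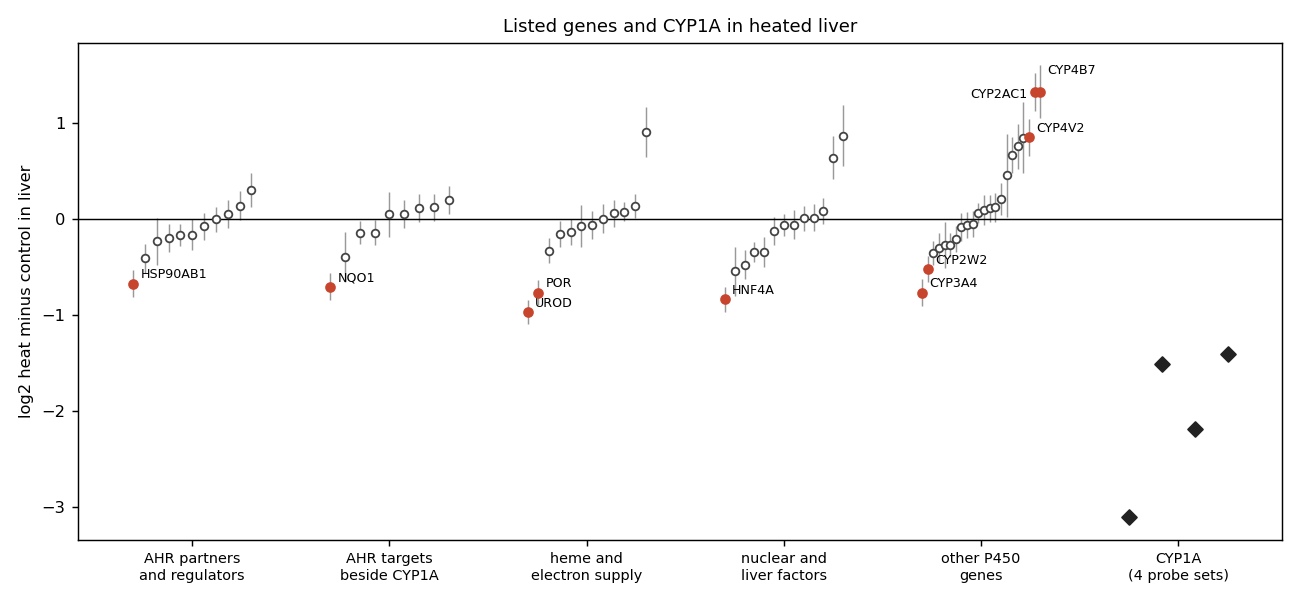
Log2 difference, heat minus control, in liver for the tested genes of each list (circles, with bars of 1 SE, red and named where limma's adjusted p was under 0.05) and for the 4 CYP1A probe sets (black diamonds, from left CYP1A1, probe set a, probe set b, probe set c). The CYP1A values run from -3.11 to -1.41, and the lowest listed gene is UROD at -0.97.

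Among the other P450 genes, calls in heated liver went both ways. Of 41 on the array, 22 were tested in liver, where 3 were higher and 2 lower, 22.7% of those tested against 13.1% over all probe sets, with a median log2 difference of 0.077 against -0.029. CYP2AC1 read 3854, 2410 and 3024 in control and 9463, 5821 and 9325 in heat, and was higher by 1.32 (SE 0.20, adjusted p = 0.010 by limma), a call lost in the fit over 18 arrays (adjusted p = 0.16). A further CYP2AC1 probe set gave 1.68 (adjusted p = 0.017 by limma). CYP4B7 was higher by 1.32 (SE 0.28, adjusted p = 0.022) and CYP4V2, a fatty acid hydroxylase, by 0.85 (SE 0.20, adjusted p = 0.029); a further CYP4V2 probe set gave 0.90 (adjusted p = 0.079). Both lost their call without control 2, control 3, heat 1 or heat 3 (adjusted p 0.063 to 0.096). CYP3A4, the name given here to a drug-oxidising P450 of the CYP3A family, read 852, 799 and 1025 in control and 584, 515 and 591 in heat and was lower by a log2 difference of -0.77 (SE 0.14, adjusted p = 0.016). Its adjusted p was 0.070 without control 3 and 0.055 without heat 1. The fifth call, CYP2W2 (log2 -0.52, adjusted p = 0.037), is named only after its value was seen, and it was lost without any 1 of the 6 arrays. In brain 0 of 20 and in muscle 0 of 22 were called, where 11.9% and 0.0104% of all probe sets were.

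The genes whose pattern over the 18 arrays was most like that of CYP1A1 were found by Pearson correlation of log2 values over 11103 symbols. They were ZC3H12A (r = 0.97), an RNase of inflammatory transcripts, MATK (0.96), a tyrosine kinase, and AS3MT (0.96), which methylates arsenic. After them came MCM3 (0.95), a subunit of the replicative helicase, LONP1 (0.95), a mitochondrial protease, UBE2U (0.95), SLC23A1 (0.95), a vitamin C transporter, and TMEM184A (0.94). Each was highest in control liver and lower in heated liver. That pattern follows largely from picking genes like CYP1A1 over arrays that include its fall in liver, so nothing is read from it. The brain and muscle levels of each were a larger part of its control liver level than for CYP1A1. For ZC3H12A, MATK and TMEM184A the brain means (50.1 to 64.7) lay under the highest background reading there (65.0), as did those of CYP1A1. Their control liver means were only 112, 209 and 145, against 2794 for CYP1A1. Background thus bounds their shares, and nothing is read from that difference for them. MCM3, for example, averaged 753 in control liver, 223 in heated liver, 215 in control muscle, 98.5 in heated muscle, 117 in control brain and 75.5 in heated brain. CYP1A1 correlated with probe set c at 0.93, with probe set a at 0.88 and with probe set b at 0.85, which ranked 42, 502 and 801 among 18536 probe sets. The 18 points share 3 tissues. The step between liver and the other tissues and the difference between heated and control liver both enter each correlation. The part of each was not tested.

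**Figure D4:**
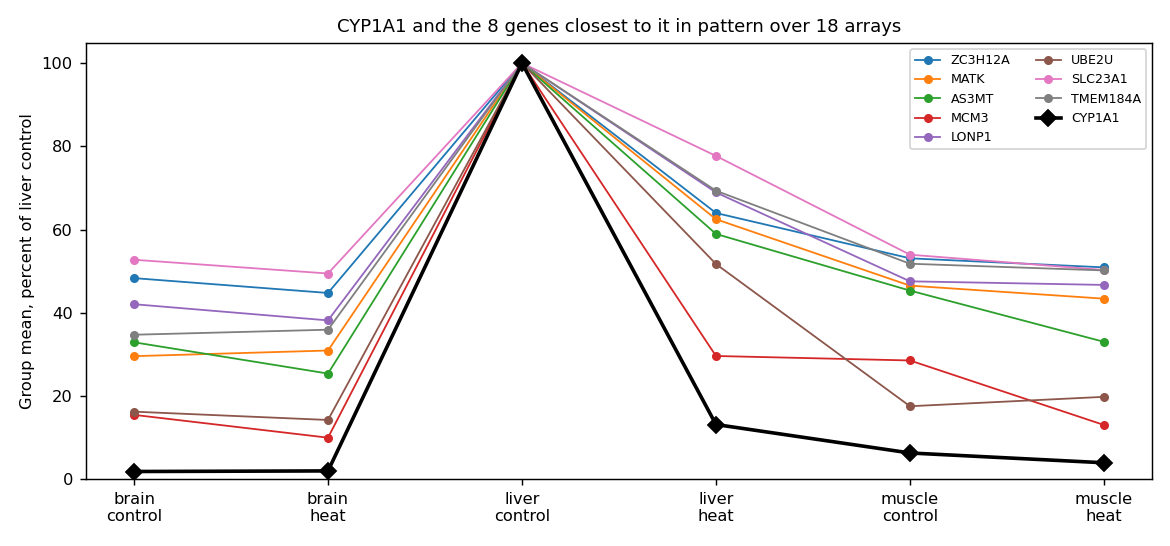
Group mean intensity of CYP1A1 (black) and of the 8 genes most like it over 18 arrays, in percent of the gene's own mean in control liver, for the 6 groups of 3 arrays. Each gene peaks in control liver, which follows largely from picking genes like CYP1A1. CYP1A1 shows the lowest share of its peak in every other group, but ZC3H12A, MATK and TMEM184A are dim and read near background in brain.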

How the data were processed

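Gene expression was measured in 18 samples with 1 array each, grouped by the labels' titles into 6 groups of 3. The values deposited by the authors are linear intensities, 1 for each of 38535 probe sets on an array. GCOS 1.4 is named per the submitters' processing notes, without its role. How probes were summarised and arrays scaled is not given in the sources read. After 96 controls were removed, 38439 probe sets remained, of which 27168 have a single symbol. The CYP1A genes, the gene lists and the tests were chosen with earlier results of these data known.

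Values were analysed as log2(intensity + 16). Liver was quantile normalized because its arrays' trimmed means (2% cut from either end) spread by more than 10% (ratio 1.12). These means were 273 to 277 on liver controls and 291 to 306 on heated liver. The scaling thus also removed a difference that went with heat, and the cause of that difference was not tested. Brain (1.07) and muscle (1.04) kept the deposited scaling. Probe sets below the median mean of a tissue were not tested. Each tissue's heat and control arrays were compared with limma 3.58.1 (R 4.3.3; two-sided moderated test, variance trend on intensity), adjusted by Benjamini-Hochberg over all probe sets tested, with a threshold of 0.05. Differences between tissues came from 1 fit to 18 quantile-normalized arrays. That fit treated the arrays as independent, while the labels do not say whether arrays of different tissues share birds. Where nothing says that arrays hold separate birds, p-values measure the spread between these arrays. The EEF1A 3'/5' ratio, a gauge of RNA quality, was 1.47 to 1.56 on brain controls and 1.32 to 1.396 on heated brain, with no overlap. In liver it was 1.21 to 1.43 and 1.27 to 1.39, and in muscle 1.53 to 2.30 and 1.58 to 1.89.

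A listed gene is represented by its probe set of highest mean. Named are the CYP1A probe sets, 8 genes of the pathway (AHR, ARNT, AHRR, TIPARP, CYP1B1, CYP1C1, POR, ALAS1), per list the 4 called genes of smallest p in liver and up to 2 in brain and muscle, the 8 genes most correlated with CYP1A1 and the 3 neighbours of each CYP1A probe set in the order of liver falls. The test within a tissue was tried on simulated data with no further scaling. Quantile normalization and the fit over 18 arrays were not tried in that way. Same-numbered control and heat arrays mostly did not deviate together (2 of 9 pairs above 0.1, r from -0.43 to 0.36), so the numbers were not used as pairs. Both pairs above 0.1 were in liver (0.12 and 0.36), where the replicate block raised the calls from 2523 to 3048. Pairing is thus not excluded in liver. Alternatives were other scalings, pseudocounts of 1 and 64, no limit or the 75th percentile as the limit, no intensity trend, a fit over 18 arrays, the replicate number as a block, and leaving out each array.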

Additional observations from a re-analysis of the deposited data

How the results depend on the processing

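Over 15 alternatives each, the liver difference ran from -3.36 to -2.68 for CYP1A1, -1.71 to -1.29 for probe set a and -2.53 to -1.74 for b. For c it ran from -1.57 to -1.06 (-1.06 with a pseudocount of 64, beyond its spread between arrays). These are values with no test. Heated and control values did not overlap in liver on these probe sets, which were chosen for their fall. The sign could thus hardly turn, and nothing is read from its holding. The muscle differences of CYP1A1, probe set a and probe set c passed under none of the alternatives run, which include the replicate number as a block. Probe set a between control muscle and control brain passed with a pseudocount of 1 (1.76, adjusted p = 0.041 by limma). Its means there, 68.1 and 19.4, lay below the limits of 87.0 and 97.2. Without muscle heat 3, an array outside this comparison, it was below the limit in muscle (mean 58.5). Nothing is therefore read from that pass. The heat effect of probe set a in muscle minus brain was 0.079 with a pseudocount of 64, and -0.42 to 0.56 with 1 array left out.

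The listed genes called lower in heated brain, 5 in the reported fit, were 3 with no limit, 3 with the limit at the 75th percentile, 0 with the replicate block and 0 to 10 with 1 array left out (10 without heat 1), and those called higher, 1, were 0 to 1. In liver 3 higher became 6 with the deposited scaling, 8 with the replicate block and 1 to 5 with 1 array left out, and 7 lower became 2 to 7. In muscle 0 and 0 became 3 higher and 6 lower in the fit over 18 arrays. Over all probe sets the calls in brain were 2294, and 401 with the block. They were 10 without control 1, 18 without control 3, 21 without heat 2 and 4444 without heat 1. In liver the calls were 2523, and 453 to 2343 with 1 array left out. They rose to 3048 with the block, 3416 in the fit over 18 arrays and 2735 with the deposited scaling. In muscle they were 2 (2054 in the fit over 18 arrays, 25 with the limit at the 75th percentile, 0 with the block). The fit over 18 arrays ended the liver calls of NQO1 (adjusted p = 0.19), CYP2AC1 (0.16) and CYP4V2 (0.12).

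Signs turned for uncalled genes when 1 array was left out. In brain, ARNT ran from -0.10 to 0.091 (positive without control 1 or heat 2), TIPARP from -0.020 (without control 3) to 0.13 and NQO1 from -0.38 to 0.082 (positive without heat 2). In liver, AHR ran from -0.19 to 0.041 (positive without heat 2) and TIPARP from -0.019 (without control 1) to 0.16. In muscle, AHR ran from -0.21 to 0.087 (positive without control 3 or heat 1), HNF4A from -0.029 (without control 1) to 0.45 and NQO1 from -0.18 (without heat 3) to 0.70. AHR in liver was 0.078 with the deposited scaling and 0.075 with equal medians. The cause of these changes was not tested. In brain the background probe sets read up to 65.0, near most CYP1A values there.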
